A study of Mus musculus with 2 samples.

Results

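The heat shock chaperones and the cold-inducible RNA-binding protein gene Cirbp were followed in liver RNA of male mice, in 1 pool that drank squalene and 1 control pool. The 10 genes were taken by name: Hspa1b, Hspa8, Hsp90aa1, Hsp90ab1, Hsph1, Dnaja1, Dnajb1, Hspd1, Hspe1 and Cirbp. A gene was followed where the array annotation gave a probe set that gene's symbol and no other. That held for 9 of the 10, on 20 probe sets, among 12393 genes with such a probe set. Hsp90ab1, the constitutive cytosolic HSP90, had none and is not analysed here. The brightest probe set of each gene is given first and the others beside it.

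All mice were apolipoprotein E-deficient, of the background C57BL/6J/ OLA129, with an age label of 2 month. The control pool had chow and a drink of 1% glycerol in water for 10 weeks. The squalene pool had chow and a glycerol drink that also supplied squalene, the triterpene precursor of sterols, at 1 g/kg/day for 10 weeks. Each pool was read on 1 Affymetrix array, the number of animals per pool is not stated in the labels, and both pools carry the apolipoprotein E deficiency, so nothing here bears on mice that have the protein. With no replicate, no test between the pools is possible. In such bulk RNA, fewer cells of one type and less RNA per cell cannot be told apart.

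Molecular chaperones bind unfolded stretches of other proteins. HSP70 proteins hold and release clients in cycles of ATP hydrolysis, J-domain proteins of the HSP40 family bring clients to them and trigger hydrolysis, and HSP110 proteins exchange the nucleotide. HSP90 finishes the folding of kinases and steroid receptors, while HSP60 and HSP10 form a closed folding chamber in the mitochondrion. The heat shock factor HSF1 raises many of these genes when misfolded protein builds up, and it does so by binding inverted repeats of a short GAA unit in their promoters. In mouse liver several of them also follow the daily rhythm of body temperature. CIRBP stands at the other end of the temperature scale: its mRNA is more abundant in mildly cooled cells, and the protein binds and stabilises other mRNAs, among them that of the clock protein CLOCK.

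The start regions are shown so that the letters HSF1 is known to bind can be looked for beside the values of each gene. RefSeq windows from 250 bases before to 50 bases after a gene start, on build GRCm38.p6, were at hand for 7 genes: Hspa1b, Hsph1, Dnaja1, Dnajb1, Hspd1, Hspe1 and Cirbp. A heat shock element of 2 inverted units (GAANNTTC or TTCNNGAA, each its own reverse complement, so that both strands are covered) lay in the windows of 5 of the 7, all but Dnajb1 and Cirbp. For Dnaja1 it was in the window of 1 of 3 RefSeq starts (40722468, and not 40722922 or 40722930). The same pattern was found in 17.0% of 27025 genes with such windows. An element of 3 alternating units, which contains the 2-unit pattern, lay in 3 of the 7 (Hsph1, Hspd1 and Hspe1) and in 0.662% of all genes. These are matches of letters only. Capitals mark the matched units in each stretch below, read 5′ to 3′ on the gene's strand.
Hspe1 and Hspd1, chr1:55088053-55088082, plus strand (that of Hspe1): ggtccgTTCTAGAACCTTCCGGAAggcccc
Hsph1, chr5:149636280-149636309, minus strand: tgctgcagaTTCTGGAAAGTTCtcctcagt
Hspa1b, chr17:34959309-34959368, minus strand: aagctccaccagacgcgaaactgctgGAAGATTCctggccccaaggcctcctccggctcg
Dnaja1, chr4:40722318-40722377, plus strand: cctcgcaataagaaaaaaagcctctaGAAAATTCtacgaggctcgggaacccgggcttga

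Hspe1 and Hspd1 lie head to head on chromosome 1 and are transcribed away from each other. With RefSeq starts at 55088148 for Hspe1 and 55087932 for Hspd1, the starts were 216 bases apart and 285 bases of their windows were the same DNA. The element printed above therefore lies upstream of both, its first base 89 bases before the Hspe1 start and, on the other strand, 144 bases before that Hspd1 start. Another RefSeq start of Hspd1, at 55088243, had no such element in its window.

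For Cirbp, the letters shown are those of TCCCCGCC, known as a mild-cold response element of this gene (searched on both strands). It lay 247 bases before the start at 80167839, near the outer end of the window, and the same letters were in 6.19% of all genes.
Cirbp, chr10:80167589-80167618, plus strand: ctgTCCCCGCCtcctagtcgctagcgggcg
Matches to these letters were also found for Hspa1b, Dnaja1 and Dnajb1.

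Signals are MAS5 values on a linear scale, and a log2 ratio is squalene over control without a pseudocount. The array medians were 39.9 with the control drink and 41.4 with squalene, and all 9 genes read above the median in both. A gene counted as measured when at least 1 pool reached it, which left 7354 genes. Without replicates, the only spread at hand is how far probe sets of a gene disagree. It leaves out variation between animals, pools or arrays that moves all probe sets of a gene alike. Multiples of this SD below are therefore not a measure of the full error of a ratio. From the 2 brightest measured probe sets per gene, the SD was 0.80, 0.36 and 0.23 log2 units. These values are for the dimmest, middle and brightest of 3 equal classes of mean signal (637, 1022 and 888 pairs). By that scale 5 of the 9 genes were in the brightest class, 3 in the middle and 1 in the dimmest, where a ratio carries the most error. All 18 hybridization spike-in probe sets read lower with squalene (median -0.26 on the log2 scale). Setting them equal would add 0.26 to every ratio below. As a sign of RNA integrity, the actin probe sets had 3′/5′ ratios of 2.80 (control) and 2.48 (squalene).

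The heat shock genes did not share a direction. Hspd1, Dnaja1 and Dnajb1 read higher in the squalene pool, Hspa1b, Hsph1 and Cirbp lower, and Hspa8, Hsp90aa1 and Hspe1 no more than 0.14 log2 units from 0. These groups follow the size of the ratio on the brightest probe set, without regard to spread. Set against the SD of its signal class, Dnajb1 (0.593 times) stood no farther from 0 than Hspe1 (0.610 times). No gene came near the log2 limit of 1.5 that the submitters used as their screen, which 2.54% of measured genes passed.

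**Figure D1:**
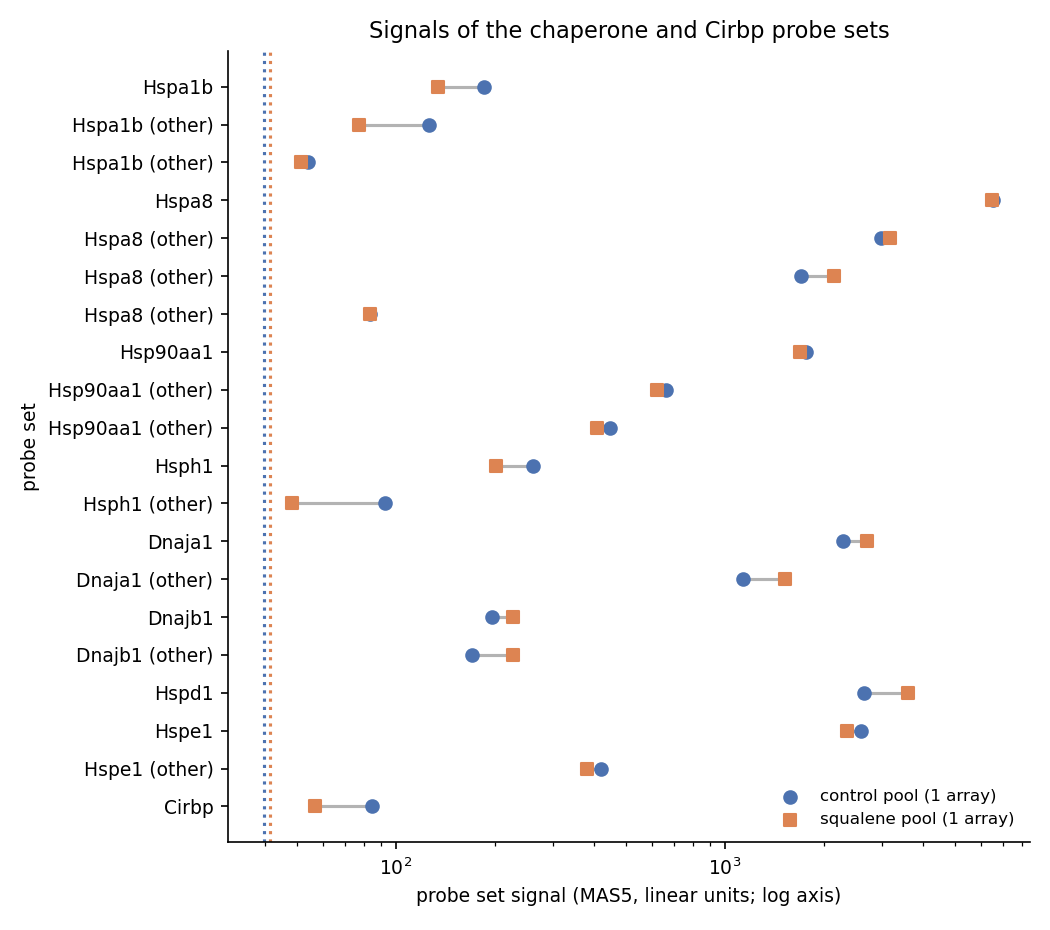
Signal of every probe set of the 9 genes in the control pool (circles) and the squalene pool (squares), 1 array each, on a log axis; dotted lines are the array medians. Points of Hspa1b, Hsph1 and Cirbp lie to the left in the squalene pool, those of Dnaja1, Dnajb1 and Hspd1 to the right, and every signal is above its array's median.

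Among the cytosolic HSP70 proteins, the constitutive Hspa8 and the heat-inducible Hspa1b read differently. Hspa8, the housekeeping HSC70 that also strips clathrin from vesicles, had signals of 6559.5 with the control drink and 6478.0 with squalene (log2 ratio -0.02). Its other probe sets read 2986.8 and 3190.7 (0.10), 1703.2 and 2143.9 (0.33), and 83.6 and 83.3 (-0.01). Of its 4 probe sets, 2 lay above 0, the larger by 1.43 times the SD at its signal. The 2 below 0 were at most 0.0777 times the SD from it. All but the dimmest carry suffixes (_a_at or _x_at) given to probe sets able to match several transcripts. The abundant HSC70 transcript thus cannot be placed in either direction.

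Hspa1b, an intronless gene that is nearly silent without stress, had signals of 185.6 with the control drink and 134.4 with squalene. That is 1.38-fold lower with squalene (log2 ratio -0.47), or 1.28 times the SD between probe sets at that signal. The other probe sets read 126.2 and 77.5 (-0.70), and 54.2 and 51.7 (-0.07). All 3 were below 0, but they differed by 0.64 log2 units among themselves, more than the ratio itself. The brighter pair carry suffixes (_a_at and _x_at) that Affymetrix gives to probe sets able to match several transcripts, and the probe set with the plain suffix is the one near 0.

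Hspa1a, its tandem copy, is not among the 10 genes but bears on this reading. The RefSeq start windows of both copies were the same at 296 of 300 bases, and the mRNAs are near-identical, so which copy a probe set reports is uncertain. The single probe set named for Hspa1a read 31.9 with the control drink and 2.2 with squalene, below the array median in both, and gives no usable ratio.

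Hsph1 encodes HSP105, the HSP110 that resets HSP70 by exchanging its nucleotide. It had signals of 261.0 with the control drink and 201.5 with squalene, 1.30-fold lower (log2 ratio -0.37), which is 1.02 times the SD. The dimmer probe set read 92.8 and 48.4 (-0.94), against an SD of 0.80 at its signal. Both of its probe sets and all 3 of Hspa1b were therefore lower with squalene, by 0.0849 to 1.93 times the SD at their signals.

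Dnaja1 and Dnajb1, the J-domain partners of HSP70 followed here, lay on the other side, although the wider J-domain list below was mixed. Dnaja1, which targets clients to HSC70 and serves import into mitochondria, had signals of 2298.1 with the control drink and 2714.4 with squalene (log2 ratio 0.24). Its other probe set read 1138.7 and 1528.8 (0.43). Both stand in the brightest class, with an SD of 0.23, so the ratios were 1.03 and 1.83 times the spread.

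Dnajb1, the classical HSP40 that heat induces together with HSP70, had signals of 196.0 with the control drink and 227.7 with squalene (log2 ratio 0.22). Its other probe set read 171.0 and 226.5 (0.41). The ratios were 0.593 and 1.11 times the SD at that signal. In the middle class 52.6% of measured genes had a ratio larger in size than the 0.22 of Dnajb1. All 4 probe sets of the J-domain pair were higher with squalene, while all 5 of Hspa1b and Hsph1 were lower. Between the brightest probe sets, Dnajb1 stood 0.68 log2 units above Hspa1b and Dnaja1 0.61 above Hsph1. With the plain-suffix probe set of Hspa1b, which read -0.07, the first of these differences would be smaller. These differences were read on 1 array per pool and were not tested.

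Hsp90aa1, the inducible cytosolic HSP90, had signals of 1766.4 with the control drink and 1698.1 with squalene (log2 ratio -0.06). The other probe sets read 663.2 and 620.8 (-0.10), and 447.5 and 410.6 (-0.12). The 3 ratios spanned 0.07 log2 units, and each was at most 0.535 times the SD. All were slightly negative as deposited, and all would be positive with the spike-ins set equal.

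The mitochondrial chaperonin genes, which share a start region, read apart. Hspd1, which encodes HSP60, the barrel of the chamber, had signals of 2649.1 with the control drink and 3605.6 with squalene. That is 1.36-fold higher with squalene (log2 ratio 0.44), 1.92 times the SD, on a single probe set. It was the highest ratio among the 9 genes and the one farthest beyond its probe set spread among their brightest probe sets.

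Hspe1, which encodes HSP10, the lid of that chamber, had signals of 2594.7 with the control drink and 2352.0 with squalene (log2 ratio -0.14, or 0.12 with the spike-ins set equal). Its other probe set read 419.8 and 381.5, also -0.14. The pair agreed to within 0.0037 log2 units, well inside the SD of 0.23. Hspd1 stood 0.59 log2 units above Hspe1, a difference that no single scaling factor alters. With 1 probe set for Hspd1, it could not be checked on other Hspd1 probes.

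Cirbp had signals of 84.8 with the control drink and 56.7 with squalene on its single probe set, 1.50-fold lower (log2 ratio -0.58). Its signals are the dimmest among the brightest probe sets of the 9 genes. At that signal the SD between probe sets is 0.80, so the ratio was 0.724 times the spread. In the dimmest class 37.0% of measured genes had a larger ratio in size. Rbm3, the other classical cold-inducible RNA-binding protein gene, shares its probe set with a pseudogene in the annotation and is not analysed here. Cirbp is thus the only cold-inducible gene followed, and a response to cold was not tested.

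**Figure D2:**
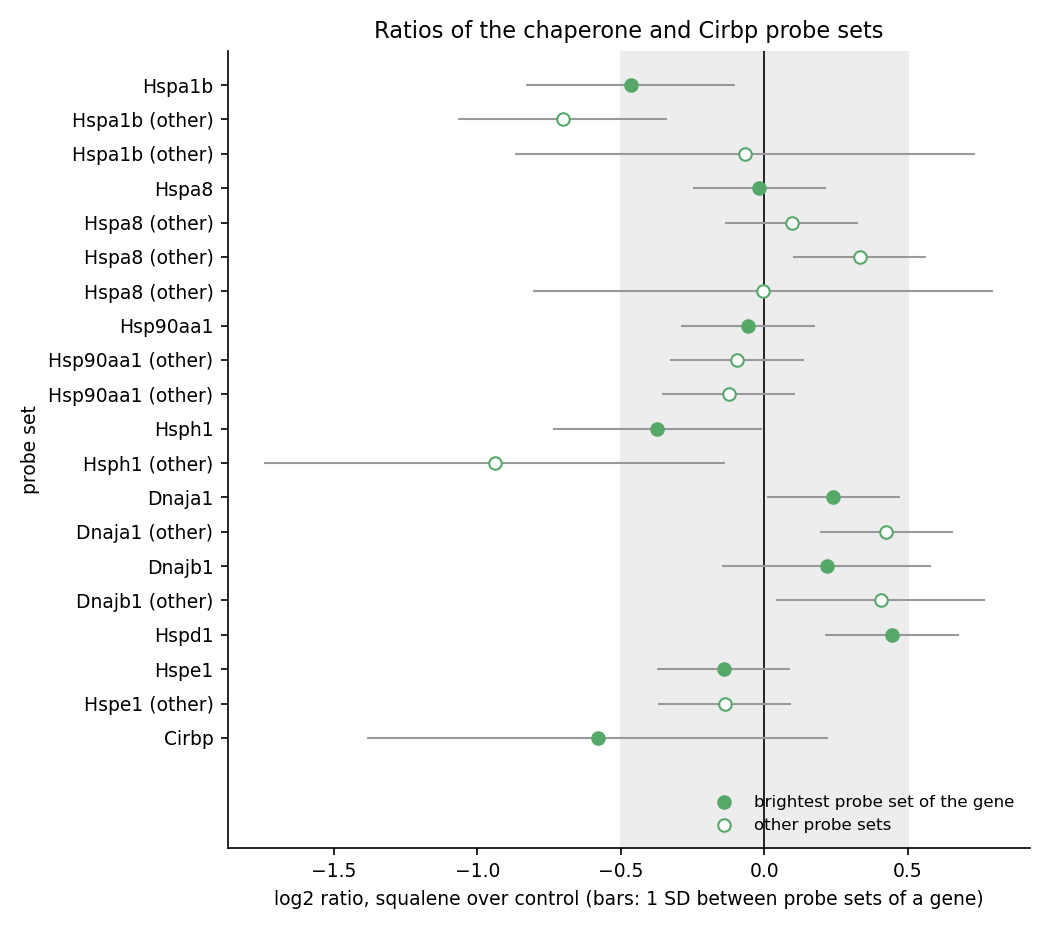
Log2 ratio, squalene over control, of every probe set; filled points are the brightest probe set of each gene, open points the others, bars 1 SD between probe sets of a gene at that signal (0.80, 0.36 or 0.23), and the grey band runs from -0.5 to 0.5. Bars stay above 0 for Hspd1, both Dnaja1 probe sets, the Dnajb1 probe set at 0.41 and the Hspa8 probe set at 0.33, and below 0 for both Hsph1 probe sets and the Hspa1b probe sets at -0.47 and -0.70; the bar of Cirbp crosses 0.

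Counted together, 0 of the 9 genes lay above a log2 ratio of 0.5, where 11.3% of all measured genes and 3.51% of those in the brightest class did. Below -0.5 lay 1 gene, Cirbp, where 10.6% of all measured genes and 3.30% of the brightest class did. At a narrower band, 1 gene (Hspd1) lay above 0.25, beside 25.0% of measured genes, and 3 (Cirbp, Hspa1b and Hsph1) below -0.25, beside 23.2%. None of these shares sets the genes apart from the rest of the array. Their median log2 ratio was -0.06, and -0.04 without Cirbp, beside 0.01 over all measured genes and -0.02 over the brightest class.

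The place of single genes in the array differed more. Hspd1 was exceeded by 13.2% of measured genes, but by only 4.24% of those in the brightest class, where it belongs. Dnaja1 was exceeded by 14.3% of the same bright genes. At the lower end, 7.59% of genes in the middle class read below Hspa1b and 11.9% below Hsph1. Of the 7 genes with several probe sets, 6 had all of them on one side of 0, Hspa8 being the exception. Probe sets of a gene read the same pools, and the like share over all genes was not counted, so this does not set the genes apart. No brightest probe set lay beyond 2 SD.

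**Figure D3:**
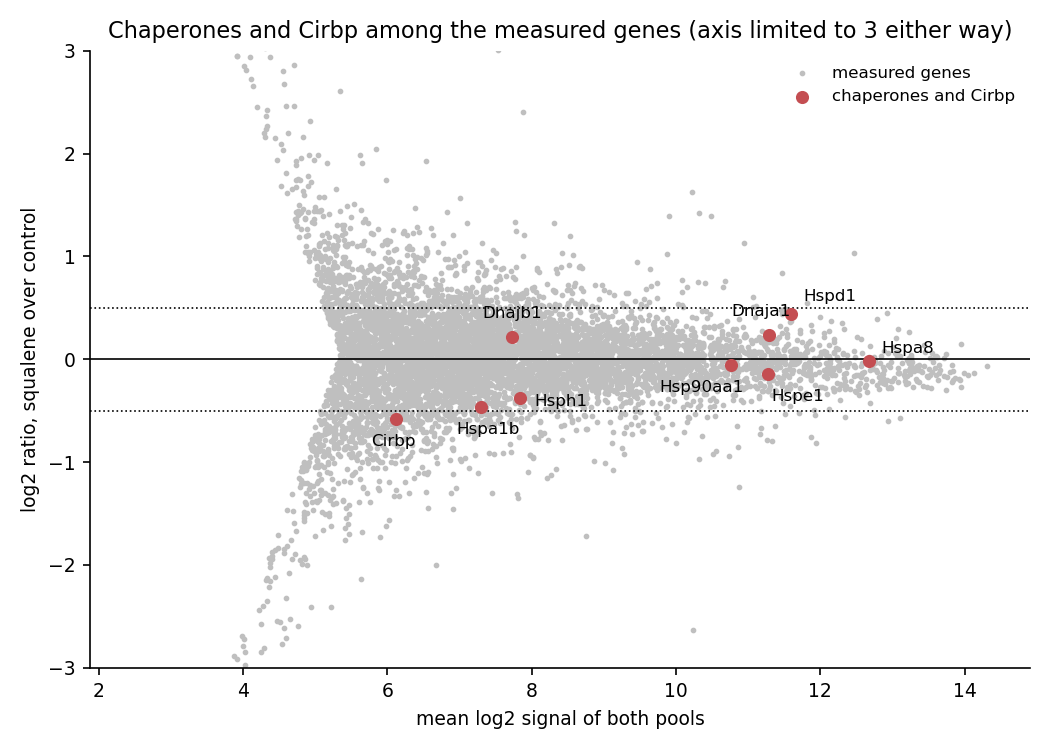
Log2 ratio, squalene over control, against the mean log2 signal of both pools for the measured genes (grey) and the 9 genes (red), with dotted lines at -0.5 and 0.5; the axis is limited to 3 either way, so more extreme genes are not drawn. The cloud narrows toward bright signals, Hspd1 lies near its upper edge there, and Cirbp lies well within the cloud of dim genes.

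Most lists of the wider chaperone network were mixed too. The HSP90, small heat shock and endoplasmic reticulum lists lay mainly or wholly below 0 as deposited. Some of the genes described above are on these lists and count there again. Over the HSP70 and HSP110 family, 9 of 15 listed genes were measured, with 3 above 0 and 6 below, 0 beyond the band of 0.5 and a median of -0.02. Outside the genes above, the extremes were Hspa4l, a testis-enriched HSP110 (45.1 and 59.6, log2 ratio 0.40), and the endoplasmic reticulum HSP70 Hspa5 (5583.2 and 4818.2, -0.21). Hspa9, the mitochondrial HSP70, read 1648.0 and 1773.3 (0.11), with its 3 other probe sets at -0.11, 0.60 and -0.31. In the HSP90 family, the brightest probe sets of all 3 measured genes lay just below 0 (median -0.04). Hsp90b1 of the endoplasmic reticulum and mitochondrial Trap1 both stood at -0.04, with other probe sets at 0.09 and -0.35.

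J-domain proteins are the largest family, with 44 listed and 32 measured. Of these, 18 lay above 0 and 14 below, with 1 beyond the band upward, 2 downward and a median of 0.08. Without Dnaja1 and Dnajb1 the median was 0.02. Both downward genes, Dnajb5 and Dnajc27, were measured through the control pool only, so their direction was fixed by the filter. Over the 30 genes at or above the median in both pools, 18 lay above 0 and 12 below, with a median of 0.13. Dnajb4, which works with HSP70 in the cytosol, read 422.0 and 579.1 (0.46) with its other probe set at 0.37. Dnajc13, an endosomal member, read 112.9 and 166.4 (0.56). Dnajb5 read 51.6 and 25.5 on its measured probe set, and its other probe sets were below the median in both pools. Dnajc27 read 43.4 and 4.6, and its other probe set 11.6 and 17.6, below the median in both, so that it gives no usable ratio.

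Small heat shock proteins, which hold unfolded clients without ATP, were mostly too dim, with 2 of 9 listed genes measured. Hspb1, the HSP25 that stress kinases phosphorylate, had signals of 162.3 with the control drink and 101.7 with squalene, 1.60-fold lower (log2 ratio -0.67), and -1.11 on its other probe set. It thus read lower alongside Hspa1b and Hsph1. Hspb8 stood at -0.10.

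Around Hspd1, mitochondrial folding and quality control was measured for all 14 listed genes. Of these 9 lay above 0 and 5 below, with 1 beyond the band in each direction and a median of 0.07. The upward gene, Spg7, was measured through the squalene pool only, so its direction was fixed by the filter. Over the 13 genes at or above the median in both pools, 8 lay above 0 and 5 below. Of those, 0 lay above the band and 1 below it, with a median of 0.03. Dnaja3, the J-domain partner of mitochondrial HSP70, read 1078.9 and 1425.2 (0.40), with its other probe sets at 0.11 and 0.22. Clpx, the unfoldase of the ClpXP protease, read 1214.4 and 707.7, 1.72-fold lower (-0.78) on 1 probe set. Grpel2, a nucleotide exchange factor, read -0.42 and the inner membrane protease gene Spg7, measured through the squalene pool only, 28.3 and 43.1.

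The cytosolic chaperonin TRiC, which folds actin and tubulin, and its partner prefoldin had 13 of 15 listed genes measured. The ratios ran from -0.18 for Pfdn2 to 0.33 for Cct8 (559.1 and 705.1), with 8 above 0, 0 beyond the band and a median of 0.14. A dim Cct8 probe set read -3.53. Cct7 (0.29) and Tcp1 (0.23) were next.

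Cochaperones of HSP70 and HSP90 had 23 of 28 listed genes measured, 16 above 0 and 7 below, with 4 beyond the band upward, 0 downward and a median of 0.07. Fkbp5, an HSP90 immunophilin that restrains the glucocorticoid receptor and is itself glucocorticoid-induced, had signals of 504.5 with the control drink and 973.5 with squalene. That is 1.93-fold higher (log2 ratio 0.95), with 0.82 on its other probe set, against an SD of 0.23 in the brightest class. Unc45a (0.81), Hspbp1 (0.69) and Cdc37l1 (0.67) were the others beyond the band, and 2 further Cdc37l1 probe sets read -0.33 and 0.08. Unc45a read 60.5 and 105.8, in the dimmest class, where the SD is 0.80. Its other probe set read 11.0 and 75.5 and reached the array median in the squalene pool only. Among the heat-responsive cochaperones, Stip1, which hands clients from HSP70 to HSP90, read 131.9 and 157.7 (0.26), and Fkbp4 0.23. Both ratios were about the size of that of Dnajb1 and within the SD of 0.36 for the middle class. Ahsa1 read 0.07 and Bag3 0.07.

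For the heat shock factors themselves little was measured. Hsf2 read 0.7 and 0.4, far below the array medians, Hsf4 26.3 and 45.0, measured through the squalene pool only, and Hsbp1, an HSF1 inhibitor, 710.1 and 652.7 (-0.12). Hsf1 had no probe set of its own name and is not analysed here. Of 25 genes listed as heat-induced through HSF1, 8 of them also among the 9 genes above, 19 were measured. They split into 10 above 0 and 9 below, with 0 beyond the band upward, 2 downward and a median of 0.07. The 2 downward were Hspb1 and Serpinh1, the collagen chaperone HSP47. Serpinh1 read 52.6 and 21.8, measured through the control pool only, and 25.3 and 12.3 on its other probe set, below the median in both. Over the 18 genes of this list at or above the median in both pools, 1 lay below the band.

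In the endoplasmic reticulum, whose chaperones answer mainly to the unfolded protein response, all 16 listed genes were measured. Here 14 lay below 0 and 2 above, with 2 beyond the band downward, 0 upward and a median of -0.15. Over all measured genes, 3628 of 7354 lay below 0. Creld2 (-0.61), Pdia4 (-0.51, and 3.82 on a dim probe set), Pdia3 (-0.42) and Sdf2l1 (-0.41) were the lowest. The median would be 0.10 with the spike-ins set equal.

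**Figure D4:**
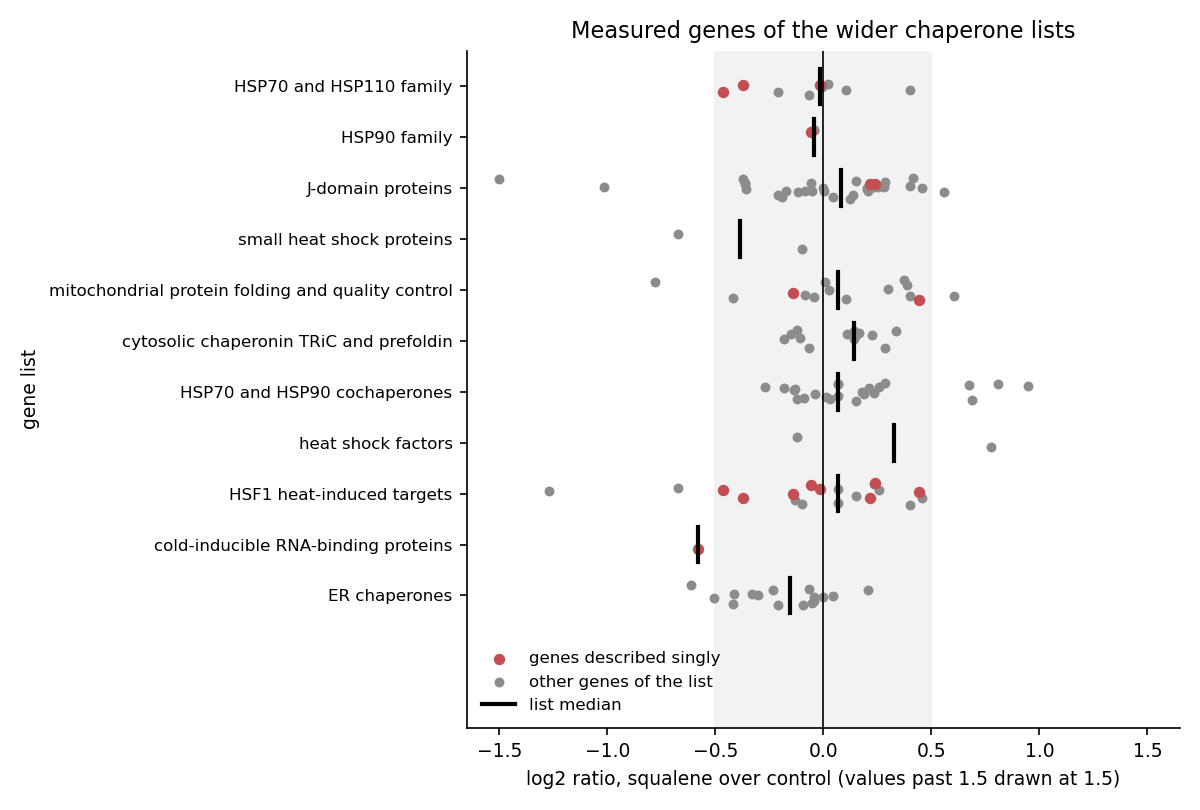
Log2 ratio, squalene over control, of the measured genes of each wider chaperone list (red for the genes described singly above, grey for the others, black bars the list medians); the grey band runs from -0.5 to 0.5 and values past 1.5 are drawn at 1.5. Medians lie between -0.15 and 0.14 for the lists with 3 or more measured genes, and genes of the HSF1 list fall on both sides of 0.

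Most Kupffer and stellate cell markers read lower with squalene, while endothelial and hepatocyte markers were divided. A gene measured through 1 pool only had to be higher there, so counts over genes at or above the median in both pools, an alternative chosen after seeing the data, are given beside these lists. Of 13 measured Kupffer cell and macrophage markers, 13 lay below 0 and 10 below the band, with a median of -0.69. Of the 11 measured in both pools, 11 lay below 0 and 8 below the band, with a median of -0.68. The summed signal of the 14 listed genes with a probe set was 6645.0 with the control drink and 4113.1 with squalene. Of 7 stellate cell markers, all measured in both pools, 6 lay below 0 (median -0.70; summed signal of 10 genes 3744.1 and 3358.0). Of 10 endothelial markers, all measured in both pools, 4 lay above 0 and 6 below, with 1 beyond the band in each direction, a median of -0.09 and summed signals of 2306.9 and 1872.0 over 12. Hepatocyte markers, the check of the tissue, read 2522.0 to 20803.2 in the control and 1950.1 to 19892.3 in the squalene pool, and their 14 ratios centred on 0.01. No listed marker was at 0 in either pool. Both measured lymphocyte markers and 1 of 3 exocrine pancreas markers were measured through the control pool only. The other 2 pancreas markers centred on -0.36, the single blood cell marker read -0.47, and no skeletal muscle marker was measured. The part of other cells in the ratios of Hspa1b, Hsph1, Hspb1, Serpinh1 and Cirbp was not tested.

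Many circadian clock genes read higher in the squalene pool. Of 15 measured circadian clock genes, 11 lay above 0 and 4 below, with 8 above the band, 2 below it and a median of 0.55. Arntl (66.2 and 11.0) and Per1 (59.9 and 36.9), the 2 below the band, were measured through the control pool only. Per2 (28.3 and 116.4) and Per3 (16.5 and 100.6) were measured through the squalene pool only. Of the 11 measured in both pools, 9 lay above 0 and 6 above the band, with the same median. The 2 below 0 were Clock (-0.31, and -0.64 on its other probe set) and Nfil3 (-0.17). Dbp, a clock output gene, read 589.2 and 1546.7 (1.39). Of 14 measured immediate early genes, which answer within minutes to handling and stress, 10 lay below 0 and 7 below the band, with a median of -0.36. Of those 7, 4 were measured through the control pool only (Ier5, Nr4a1, Klf4 and Klf6), and over the 10 measured in both pools 4 lay above 0 and 6 below, 3 of them below the band, with a median of -0.055. The labels do not state the hour of collection, and its part in the ratios of the chaperones and Cirbp was not tested.

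**Figure D5:**
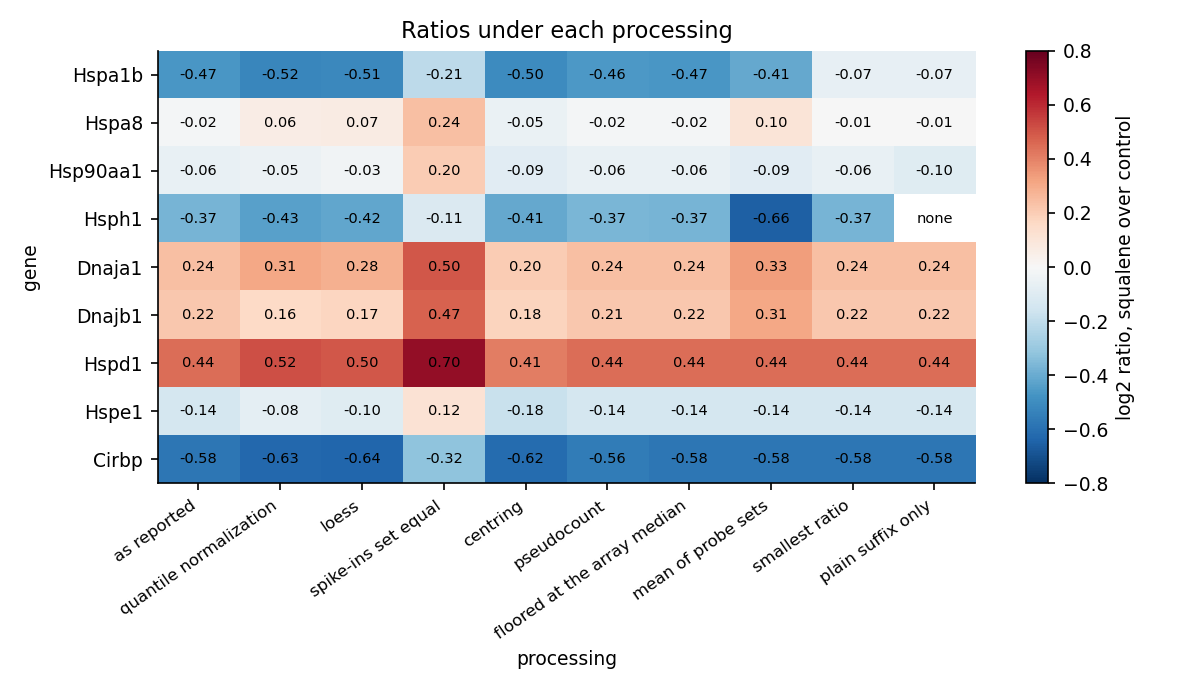
Log2 ratio, squalene over control, of the 9 genes as reported (left column) and under 9 other ways of processing, coloured from blue (lower with squalene) to red (higher); "none" marks Hsph1, which has no plain-suffix probe set. Dnaja1, Dnajb1 and Hspd1 stay above 0 and Hspa1b, Hsph1 and Cirbp below 0 in every column with a value, while Hspa8, Hsp90aa1 and Hspe1 turn positive with the spike-ins set equal (Hspa8 also with quantile normalization, loess and the mean of probe sets).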

How the data were processed

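Liver RNA of 1 control pool and 1 squalene pool was read on 1 Affymetrix array each. The authors deposited linear MAS5 intensities, 1 per probe set, per the submitters' processing notes. Both arrays had a 2%-trimmed mean of 200.1, which was seen in the values. Of 22690 probe sets, 64 were array controls. Of the rest, 20380 had a single symbol in the platform annotation, 691 several and 1555 none, and only single symbols were named. The log2 ratio of squalene over control was computed without a pseudocount, with no test and no p-value. A gene was measured when a probe set reached the array median in at least 1 pool, and the brightest measured probe set stood for it. A band of 0.5 was used for counts. The genes and lists were chosen with earlier results of these data known. Named genes were the 10 listed ones, up to 4 others with the largest ratios per chaperone list, and a short set of chaperones taken whatever their value. Beyond that rule, Dbp, Arntl, Per1, Per2, Per3, Clock, Nfil3, Ier5, Nr4a1, Klf4 and Klf6 were named after their values were seen. The computing of ratios and counts was checked on simulated arrays with known changes in bright genes only. Those changes were larger than any ratio of the brightest probe sets of the 9 genes, and the simulated spread was smaller than the SDs given above. The check therefore does not bear on ratios of the size reported here. Python 3.11.15, numpy 2.4.6, pandas 2.3.3, matplotlib 3.10.9 and, for loess, limma 3.58.1 in R 4.3.3 were used. Sequences came from RefSeq windows on GRCm38.p6.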

Additional observations from a re-analysis of the deposited data

How the results depend on the processing

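The alternatives were quantile normalization, loess, equal spike-ins, centring, a pseudocount of 3.0, signals floored at the array median, other choices of probe set (the mean, the smallest ratio, plain suffix only), other limits and other filters. A value was called moved when it shifted by more than the SD between probe sets. Over 80 values of single genes, 73 moved by less and 6 changed sign. Some of the 73 could not move. Flooring leaves all 9 genes unchanged because they lie above the array median. The choice of probe set cannot change Hspd1 or Cirbp, which have 1 each. For Cirbp the SD of 0.80 also exceeds the shift from equal spike-ins. The count is thus no measure of how stable the ratios are. As deposited 0 genes lay above 0.5 and 1 below -0.5. With quantile normalization 1 lay above and 2 below, and with loess, centring or the mean of probe sets 2 lay below. With equal spike-ins 1 lay above and 0 below, at a limit of 0.25 there were 1 above and 3 below, and at 1.0 and 1.5 there were 0 below. Equal spike-ins add 0.26 throughout. The median of the 9 genes became 0.20, and list medians became 0.24 (HSP70), 0.22 (HSP90), 0.34 (J-domain), -0.13 (small heat shock), 0.32 (mitochondrial), 0.40 (TRiC), 0.33 (cochaperones and, with the same value, HSF1 targets), 0.59 (heat shock factors), -0.32 (Cirbp) and 0.10 (endoplasmic reticulum). The small heat shock median was -0.10 with plain suffixes only. The heat shock factor list had 2 measured genes, Hsf4 and the HSF1 inhibitor Hsbp1, with a median of 0.33. That median was 0.026 with floored signals. It was -0.12 with plain suffixes only, no filter, the 75th percentile filter or both pools at or above the median. This -0.12 is the ratio of Hsbp1, which is not itself a heat shock factor. Hspa1b was at -0.07 with its plain-suffix or smallest-ratio probe set. No paired analysis was possible because each group has 1 array. Dim signals limit Cirbp most.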
